A study of Rattus norvegicus with 12 samples.

Results

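rno-miR-451-5p, rno-miR-144-3p and rno-miR-486 are microRNAs (miRNAs, short RNAs that pair with messenger RNAs and lower their output) found in red blood cells. They were measured in rat heart tissue, where the first of them is used to gauge how much blood a sample still holds and the last is also made by muscle. The members were taken by name, and all 3 of them were among the 758 rat miRNAs of the array. The comparisons ask how much red-cell miRNA each array carried, whether this differed between the groups, and whether miR-486 followed miR-451-5p from array to array.

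Tissue came from the left ventricle of male Wistar rats, with 4 arrays in each of 3 groups and 1 rat per array. The paper places the sampled tissue near the infarct, and does not say which part was taken from the unligated Sham hearts. In the MI group the left anterior descending coronary artery had been ligated, and the rats received saline. In the YQFM group ligated rats received Yiqifumai injection, a botanical preparation from ginseng, Ophiopogon and Schisandra, at 5 mg/kg a day into the abdominal cavity for 28 days, starting 4 weeks after surgery. The Sham group was operated without the ligature and received saline. The source name of MI replicate 4 reads Sham and that of Sham replicate 4 reads YQFM, while their titles, descriptions and group entries give the groups used here. Nothing in the sources used here says whether the hearts were rinsed or perfused before sampling.

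Red cells lose their nucleus late in maturation, and the miRNAs made before that step stay in the circulating cell. miR-451 and miR-144 are cut from 1 primary transcript that the erythroid factor GATA1 switches on, and miR-451 is the best known miRNA of red cells. Its hairpin is too short for the enzyme Dicer and is cut by Argonaute 2 instead, so that its mature strand runs from the stem into the loop. miR-486 lies within the gene of ankyrin 1, a protein of the red-cell skeleton that also has a muscle form, and it is made both in erythroid cells and in heart and skeletal muscle, where it acts on PI3K/AKT signaling.

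The sequences are shown because the array told these miRNAs apart by short probes, and because the hairpins show how differently the mature strands lie in them. RefSeq sequences on the GRCr8 assembly matched 2 of the 3 members, and miR-486 is named only. In both mature strands the seed, bases 2 to 8, is in capitals, and it was shared with no other of the 693 mature rat sequences listed.
miR-451-5p: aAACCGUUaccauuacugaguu
miR-144-3p: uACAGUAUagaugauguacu
In the hairpins of Mir451a and Mir144 the capitals mark these mature strands, at bases 17 to 38 of 72 and at bases 50 to 69 of 83.
Mir451a: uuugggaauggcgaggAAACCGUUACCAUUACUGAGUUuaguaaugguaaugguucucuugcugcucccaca
Mir144: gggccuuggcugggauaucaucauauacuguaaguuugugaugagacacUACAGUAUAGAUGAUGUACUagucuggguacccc
Both hairpins lie on the plus strand of chromosome 10 in GRCr8, Mir144 at chr10:63459397-63459479 and Mir451a at chr10:63459569-63459640, with 89 bases between them. They are annotated as miRNA genes of their own between Flot2, which ends 13585 bases before Mir144, and Eral1, which begins 133 bases after Mir451a.

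Each miRNA was read by a pair of DNA probes in 8 spots each, and the longer probe of a pair covers 1 more base, in capitals here.
miR-451-5p probe, 20 bases: aactcagtaatggtaacggt
miR-451-5p probe, 21 bases: aactcagtaatggtaacggtT
miR-144-3p probe, 18 bases: agtacatcatctatactg
miR-144-3p probe, 19 bases: agtacatcatctatactgT
miR-486 probe, 13 bases: ctcggggcagctc
miR-486 probe, 14 bases: ctcggggcagctcA
The miR-451-5p probes are the complement of bases 3 to 22 and 2 to 22 of the mature strand, and the miR-144-3p probes of bases 3 to 20 and 2 to 20. G and C made up 40% and 38.1% of the miR-451-5p probes and 33.3% and 31.6% of the miR-144-3p probes, against 76.9% and 71.4% of the miR-486 probes. Signals of different miRNAs are therefore not set against each other, and only their changes between arrays are compared.

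Values are scaled signals, in arbitrary units of fluorescence, after each array was brought to a common 75th percentile. Detection means that over 50% of the spots of some probe of the miRNA exceeded the background clearly, by the flag of the scanner software. Lower signals than 5.20 were raised to this floor before taking log2, which gives 2.38, and arrays at the floor cannot be ranked against each other. In such bulk tissue the cells that gave a signal were not identified, for miR-451-5p as for miR-486. Fewer red cells and less RNA per red cell cannot be told apart either.

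miR-451-5p, the red-cell miRNA, was at the edge of detection and varied widely within every group. Its scaled signal was 3.12, 2.10, 27.6 and 10.8 on Sham arrays 1 to 4. On the MI arrays it was 15.2, 7.27, 2.48 and 9.65, and on the YQFM arrays 19.6, 14.2, 1.49 and 2.94. It was detected on 2 of the 4 arrays of each group, namely Sham 3 and 4, MI 1 and 4, and YQFM 1 and 2. MI 2 was above the floor without being detected, with 2 of 11 spots well above background, and the other 5 arrays were at the floor. Sham 3, the highest array of the series, shared its slide with 4 of the 5 arrays at the floor, and each group held both detected arrays and arrays at the floor.

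Against the floor, the highest array was at least 5.30-fold above the lowest in Sham, at least 2.92-fold in MI and at least 3.77-fold in YQFM. Both probes rose and fell together from array to array, with a Pearson r of 0.99 between them over 12 arrays. On the 6 arrays with detection the longer probe was 2.29 to 2.83 times as bright, and the shorter one was detected only on Sham 3 and YQFM 1. On Sham 3 all 13 spots used were well above background, and on each of the 5 arrays at the floor none was.

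miR-144-3p, the partner of miR-451 on the same transcript, was detected on 0 of 12 arrays. Its scaled signal lay between -1.61 and -0.35 in Sham, between -2.02 and -0.99 in MI and between -1.90 and -0.69 in YQFM, after background subtraction. None of its 179 spots was well above background on any array, Sham 3 included, so it had no measured change between groups. Every array lay far under the floor of 5.20, and the signals of the 3 groups overlapped. The opposite arms of both hairpins, miR-451-3p and miR-144-5p, were likewise detected on 0 of 12 arrays, with scaled signals of at most 1.48 and 0.89.

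miR-486, the miRNA shared by red cells and striated muscle, was detected on 12 of 12 arrays, with all of its 170 spots well above background. Its scaled signal was 248, 195, 208 and 211 on Sham arrays 1 to 4. On the MI arrays it was 195, 161, 159 and 204, and on the YQFM arrays 165, 184, 177 and 162. The Sham arrays were the highest on the whole, MI 4 lay within their range, MI 1 lay just under the lowest of them at 194.6 against 195.5, and every YQFM array lay below it. Within a group the highest array exceeded the lowest by a fold of 1.27 (Sham), 1.28 (MI) or 1.14 (YQFM). Its probes had a Pearson r of 0.96 over 12 arrays, and the spots of a probe on an array had a median coefficient of variation of 3.92%.

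**Figure D1:**
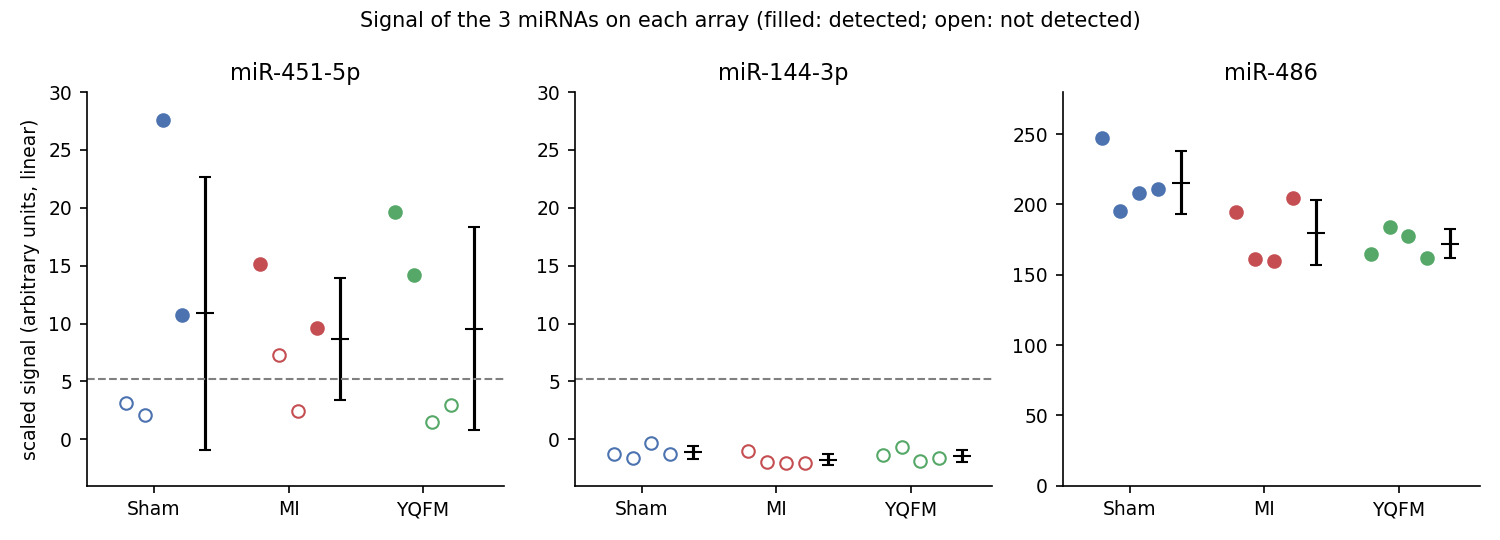
Scaled signal (arbitrary units, linear axis) of miR-451-5p, miR-144-3p and miR-486 on each array, in replicate order from left to right within Sham, MI and YQFM. Filled points are detected and open points are not, the dashed line is the floor of 5.20, and the bars are mean ± SD (n = 4). miR-451-5p was detected on 2 arrays of each group, miR-144-3p on none and miR-486 on all.

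The spread between rats of 1 group set these miRNAs apart. The within-group SD of miR-451-5p was 0.95 on the log2 scale, the third highest of the 261 miRNAs tested, whose median was 0.25. That of miR-486 was 0.14, and 10.3% of the miRNAs tested had a lower one. The first of these depends on the floor, where 5 arrays lay.

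No difference between groups was found for miR-451-5p. Its log2 signal was 3.24 ± 1.14 in Sham, 3.11 ± 0.65 in MI and 3.22 ± 0.99 in YQFM (mean ± SD, n = 4), with 2, 1 and 2 arrays at the floor. MI to Sham gave a log2 ratio of -0.13 with an SE of 0.56 (limma, adjusted p = 0.921). That of YQFM to MI was 0.11 (limma, adjusted p = 0.953), and that of YQFM to Sham was -0.02 (limma, adjusted p = 0.999). The 95% interval of MI to Sham ran from a fold of 0.393 to 2.11, so changes within that range are compatible with these arrays. This range is not a limit of detection, which was not computed. The interval takes the arrays at the floor as measured values and leaves out their uncertainty. Exact two-sided permutation tests gave p = 0.914, 0.914 and 1 in the same order.

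miR-486 was lower on average in both ligated groups than in Sham, without passing the test across all miRNAs. Its log2 signal was 7.75 ± 0.15 in Sham, 7.48 ± 0.18 in MI and 7.43 ± 0.09 in YQFM (mean ± SD, n = 4). MI to Sham gave a log2 ratio of -0.26 with an SE of 0.13, a fold of 0.833 with a 95% interval from 0.688 to 1.01 (limma, adjusted p = 0.189). This ratio kept its sign in 24 of 25 other settings, but its size depended on how the signal was summarized. It was -0.04 with the brightest probe alone and -0.08 with the total gene signal. YQFM to MI gave -0.06, a fold of 0.961 with an interval from 0.794 to 1.16 (limma, adjusted p = 0.906). YQFM to Sham gave -0.32, a fold of 0.801 with an interval from 0.662 to 0.969 (limma, adjusted p = 0.723). The exact permutation p was 0.0571, 0.629 and 0.0286, and the last is the smallest that 4 arrays against 4 can give.

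Fibroblast miRNAs were higher on average in the ligated groups, where miR-486 was lower. All 4 listed had positive log2 ratios, with a median of 0.67 for MI to Sham and 0.52 for YQFM to Sham, and none was called (smallest limma adjusted p = 0.162 and 0.723). Their summed signal was 380 to 561 over the Sham arrays, 473 to 1104 over MI and 488 to 1543 over YQFM. The YQFM means leaned on the highest array of each miRNA. There miR-21-5p had a log2 mean of 8.26, with arrays from 7.82 to 9.34, beside 7.40 to 7.96 in Sham. For miR-214-3p the YQFM mean was 7.39, with arrays from 6.94 to 8.59, beside 6.59 to 7.21 in Sham. The 4 cardiomyocyte miRNAs tested had median log2 ratios of -0.11 for MI to Sham and -0.14 for YQFM to Sham. The part of the cell makeup in the values of miR-486 was not tested.

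None of the 3 members was called in any comparison. Among the 261 miRNAs tested, 29 or 11.1% were called between MI and Sham at an adjusted p under 0.05, 0 or 0% between YQFM and MI, and 0 or 0% between YQFM and Sham. At an unadjusted p under 0.05 limma gave 77, 46 and 16 miRNAs. Every YQFM array was below every Sham array for miR-486, and the same held for 16 miRNAs or 6.13% of those tested. This lack of overlap held under 3 of 7 other scalings and signal summaries. It was lost under the total gene signal, the percentile over all miRNAs, quantile normalization and no scaling. Among the 3 were the authors' processed values, whose YQFM to Sham log2 ratio of miR-486 was also -0.3202, so they give no separate check. The median log2 ratio of all miRNAs tested was -0.11 for YQFM to Sham, so most miRNAs tested were lower in YQFM on this scale.

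**Figure D2:**
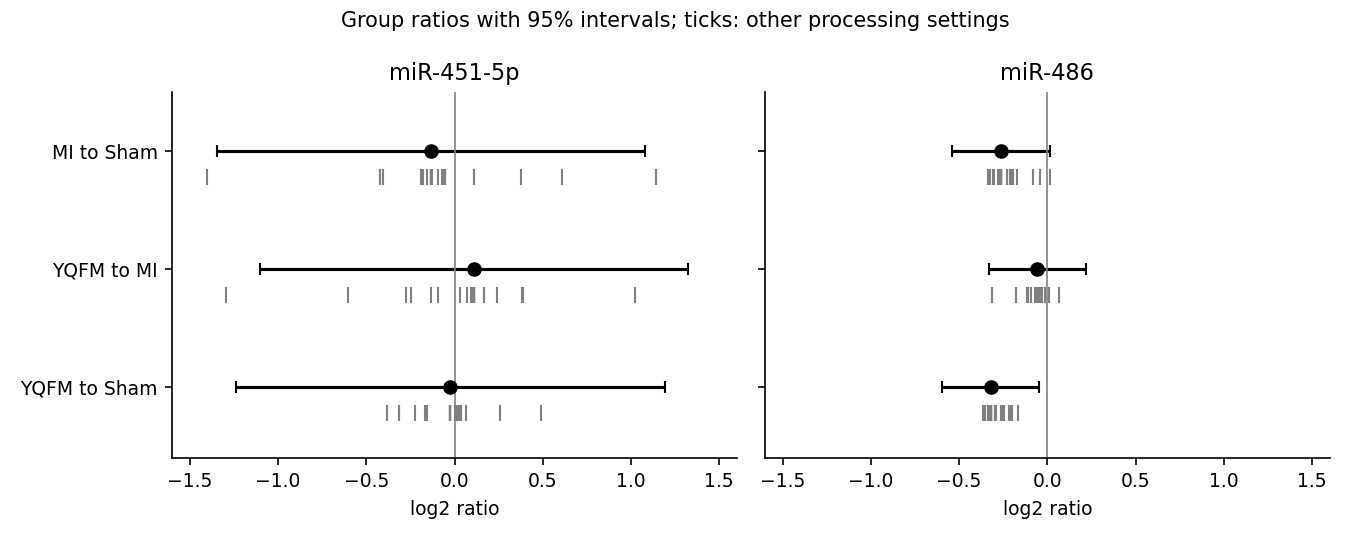
Log2 ratio of miR-451-5p and miR-486 between groups, with points for the fitted value, bars for the 95% interval from limma over 12 arrays and grey ticks for the other processing settings. The intervals of miR-451-5p span -1.35 to 1.33, those of miR-486 span -0.60 to 0.22, and the ticks of miR-451-5p fall on both sides of 0 in every comparison.

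MI and Sham arrays never shared a slide, which touches both miRNAs. The slide with 7 arrays held Sham 1 to 4 and YQFM 2 to 4. On it the log2 ratio of YQFM to Sham was -0.30 for miR-486 (exact permutation p = 0.0571, smallest possible 0.0286) and -0.38 for miR-451-5p (exact permutation p = 0.714). Another slide held MI 4 and YQFM 1, where YQFM minus MI was -0.31 for miR-486 and 1.02 for miR-451-5p, with 1 array each and no test. With slide as a block, the MI to Sham log2 ratio of miR-486 was 0.012 in place of -0.26. That of miR-451-5p was -1.40 in place of -0.13. MI 1 to 3 were alone on their slide, so MI enters this fit through MI 4 only, the array whose source name reads Sham. It is tied to the Sham arrays by way of YQFM 1 on its slide. Slide and group cannot be told apart in the comparison of MI with Sham.

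Taken within each array, the gap between miR-486 and miR-451-5p varied more between rats than between groups. The log2 signal of miR-486 minus that of miR-451-5p was 4.50 ± 1.19 in Sham, 4.37 ± 0.52 in MI and 4.21 ± 0.98 in YQFM (mean ± SD, n = 4). This within-array difference, which no scaling factor touches above the floor, changed by -0.13 from Sham to MI, by -0.17 from MI to YQFM and by -0.30 from Sham to YQFM. Exact two-sided permutation tests gave p = 0.886, 0.857 and 0.743, and the adjusted p over 6 such tests was 1 for each. The other 3 tests took miR-451-5p relative to miR-23a-3p, a miRNA used as a reference for miR-451 in judging hemolysis, the bursting of red cells. This difference changed by -0.17 from Sham to MI, -0.01 from MI to YQFM and -0.18 from Sham to YQFM. None of the 3 tests had a smaller exact permutation p than 0.829.

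No correlation of miR-486 with miR-451-5p was detected over the 12 arrays. Pearson's r of their log2 signals was 0.12 (permutation p = 0.707) and Spearman's rho was 0.22 (permutation p = 0.480). Without Sham 3 and YQFM 1, the arrays farthest from the median of miR-451-5p, r was 0.18 (n = 10, permutation p = 0.626). Within the slide of 7 arrays r was 0.15 (permutation p = 0.737), and after subtracting group means it was 0.14 (permutation p = 0.654). On signals without the floor, r was 0.14 and rho 0.28 over all arrays (permutation p = 0.671 and 0.376). The adjusted p was 0.737 for each of the 16 coefficients computed. Sham 3, the array with the most miR-451-5p, had a miR-486 signal of 208, under that of Sham 1 at 248, where miR-451-5p was at the floor. The relations of miR-144-3p with the others could not be computed, since it was at the floor on every array.

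**Figure D3:**
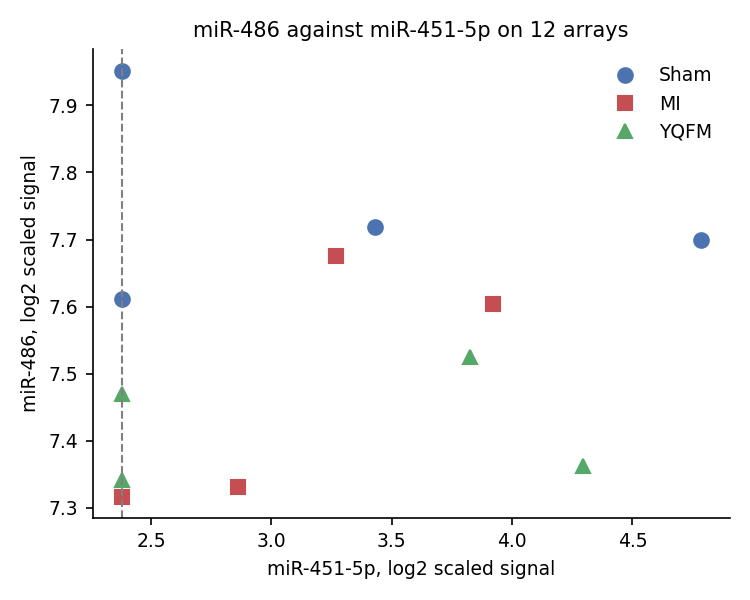
Log2 scaled signal of miR-486 (vertical axis) against that of miR-451-5p (horizontal axis) on 12 arrays, with a symbol for each group and a dashed line at the floor of 2.38. Arrays at the floor for miR-451-5p span miR-486 values from 7.32 to 7.95, and r over all arrays is 0.12.

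Other miRNAs abundant in red cells were taken as a list of 9, among them miR-16-5p, miR-25-3p and miR-15b-5p, which other cells make too. Of these, 8 were detected on all 12 arrays and miR-363-3p on none. None of the 8 was called in any comparison. Their median log2 ratio was -0.03 for MI to Sham, -0.07 for YQFM to MI and -0.03 for YQFM to Sham, beside -0.05, -0.01 and -0.11 for all miRNAs tested. miR-16-5p of this list had a log2 mean of 9.03 in Sham, with 9.35 in MI and 9.08 in YQFM.

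Over the 12 arrays, with the scaling used here, the red-cell companions had mostly positive correlations with both miR-451-5p and miR-486. The cardiomyocyte miRNAs had them with miR-486. All 8 red-cell companions had a positive Pearson r with miR-451-5p, from 0.10 to 0.69 with a median of 0.48, beside a median of 0.09 over the 201 miRNAs detected on all arrays. The highest were miR-15b-5p at 0.69 and miR-25-3p at 0.68. With miR-486 the same list ranged from -0.16 to 0.69 with a median of 0.35. The cardiomyocyte miRNAs miR-1-3p, miR-133a-3p, miR-133b-3p and miR-499-5p had r with miR-486 of 0.70, 0.55, 0.72 and 0.73, beside a median of 0.27 over 200 miRNAs. With miR-451-5p these 4 ranged from -0.37 to 0.09.

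Within the slide of 7 arrays the order of the red-cell list turned, with a median r of 0.31 with miR-451-5p (-0.14 to 0.77) and 0.64 with miR-486 (0.32 to 0.89). Nor was a positive r with miR-451-5p limited to the red-cell list. The 4 fibroblast miRNAs, among them miR-21-5p and miR-214-3p, had r with miR-451-5p from 0.42 to 0.56 with a median of 0.52, and with miR-486 from -0.37 to -0.15. The smooth muscle miRNAs miR-143-3p and miR-145-5p had r with miR-486 of 0.71 and 0.54.

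None of the 24 relations with the red-cell and cardiomyocyte lists passed an adjusted p of 0.05, taken over the permutation tests of Pearson's r and Spearman's rho, where the smallest was 0.0793. Within the slide of 7 arrays the cardiomyocyte list had r with miR-486 from 0.56 to 0.83, and after subtracting group means from 0.61 to 0.84. Without the 2 arrays farthest from the median of miR-486, r was 0.59 to 0.65. Scaling moved these values. They were 0.80 to 0.92 without any scaling, where the median over all miRNAs was 0.61, and -0.34 to 0.48 after quantile normalization. The red-cell list had r with miR-486 of 0.31 to 0.85 without scaling and -0.50 to 0.23 after quantile normalization. With miR-451-5p its r was 0.31 to 0.69 and 0.08 to 0.75 in the same order. The medians over all miRNAs with miR-451-5p were 0.28 and -0.03 in these settings. Over the alternatives run, r with miR-451-5p was as low as -0.38, for miR-92a-3p. Arrays share their scaling factor between all miRNAs, and its part in these correlations was not tested.

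**Figure D4:**
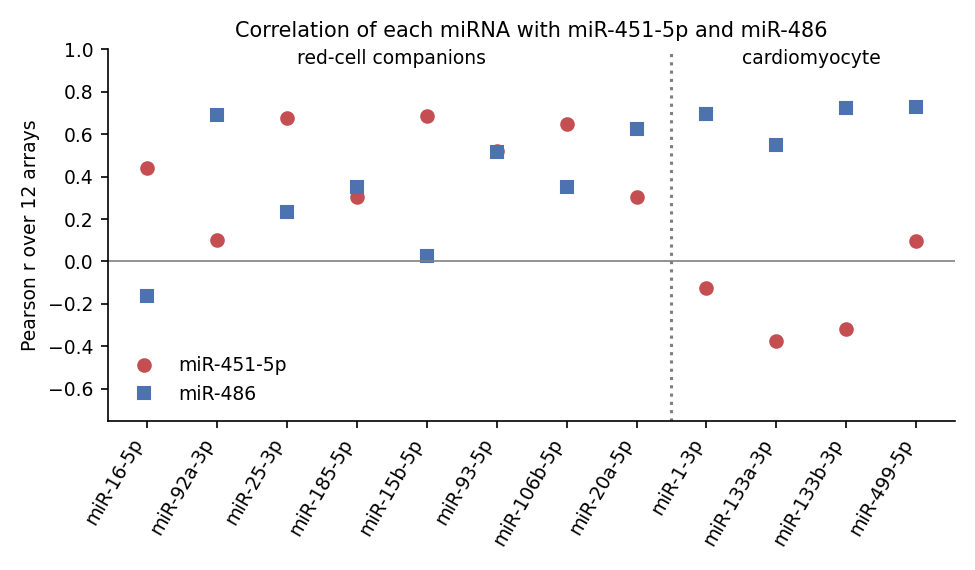
Pearson's r over 12 arrays between each listed miRNA and miR-451-5p (circles) or miR-486 (squares), with the red-cell companions left of the dotted line and the cardiomyocyte miRNAs right of it. The cardiomyocyte miRNAs lie between 0.55 and 0.73 for miR-486 and between -0.37 and 0.09 for miR-451-5p.

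The miRNAs most like each member were sought among those detected on all 12 arrays. For miR-451-5p they were miR-324-5p, miR-347 and miR-352, with Pearson r of 0.74, 0.71 and 0.70. miR-486 stood at place 95 of 201 in that order. For miR-486 they were miR-3473, miR-345-5p and miR-133a-5p, with r of 0.88, 0.86 and 0.83, and the last is the opposite arm of the muscle miRNA miR-133a-3p. These are the highest of many values and carry no test.

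The listed markers of heart muscle were detected only in part. Of the 6 cardiomyocyte miRNAs listed, 4 were detected on all arrays, miR-208a-3p on 1 and miR-208b-3p on none. miR-206-3p of skeletal muscle was detected on 10 arrays at low signal, and miR-122-5p of liver on none. Blood also brings leukocytes, and 5 of the 7 leukocyte miRNAs listed were detected on all arrays, while miR-142-3p and miR-142-5p, hallmarks of white blood cells, were detected on none. The summed signal of the detected leukocyte miRNAs was 401 to 453 in Sham, 394 to 472 in MI and 394 to 459 in YQFM, overlapping between all groups. The share of spots well above background ran from 24.4% on MI 3 to 31.6% on YQFM 1, and the part of this and of any residual blood in the values above was not tested.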

How the data were processed

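MiRNAs of 12 left ventricles, 4 per group, were hybridized to single-dye Agilent rat miRNA arrays. The authors deposited spot intensities, detrended and background-subtracted by Agilent Feature Extraction 10.7.1.1 (per the submitters' processing notes and the file headers) and not scaled between arrays, and a table of processed intensities per miRNA, used here as an alternative. The array annotation is on rn4, and other positions are on GRCr8.

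Control and outlier spots were left out. Spots were averaged per probe and probes per miRNA, brought to a common 75th percentile, taken over the 201 miRNAs that every array detected, floored and taken to log2. Of 758 miRNAs, 263 were detected on at least 2 arrays of a group, and 261 of them varied and were tested over 12 arrays with limma (3.58.1, R 4.3.3), p-values being adjusted by Benjamini-Hochberg, which was tested on simulated data. Permutation tests on single values were exact, or used 100000 permutations for correlations (Python 3.11.15). With no counts, precision is limited by the number of arrays and, for 471 miRNAs detected on no array, by signal over background. The members, their opposite arms, the marker lists and the 3 most correlated miRNAs were named by rule, with earlier results of these data known.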

Additional observations from a re-analysis of the deposited data

Results flagged for a closer look

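Within groups of 4 arrays, a highest or lowest value was singled out where its gap to the next array exceeded 0.829 of the group's range (Dixon's 95% value, which chance passes in about 1 of 20 groups). Of 27 groups examined for miR-451-5p, miR-486, miR-23a-3p and the miRNAs most like the members, 3 held such an array, and neither miR-451-5p nor miR-486 was among them. For miR-23a-3p, YQFM 1 had a log2 signal of 9.93, with the other YQFM arrays at 9.23 to 9.33. For miR-324-5p, YQFM 1 had 4.42, with the others at 3.87 to 3.95. For miR-352, Sham 2 had 3.36, with the others at 3.66 to 3.71.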

How the results depend on the processing

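Neither miR-451-5p nor miR-486 passed an adjusted p of 0.05 under any alternative run. The log2 ratio of miR-486 for YQFM to Sham stayed negative throughout, from -0.37 to -0.16. Its MI to Sham ratio was 0.012 with slide as a block, -0.040 with the brightest probe and -0.082 with the total gene signal. Its YQFM to MI ratio was 0.068 without scaling and 0.0073 without the arrays whose labels conflict. The small ratios of miR-451-5p changed sign more often. MI to Sham became 0.61 with the total gene signal, 1.14 with the authors' processed values and 0.11 with the floor divided by 4, and YQFM to MI became -0.61, -1.30 and -0.28. With slide as a block they kept their sign and grew to -1.40 for MI to Sham and 1.02 for YQFM to MI, with -0.38 for YQFM to Sham. In every fit with slide as a block MI rests on MI 4 alone, since MI 1 to 3 had a slide to themselves. YQFM to Sham became 0.016 with normexp, 0.0056 with the total gene signal, 0.0097 with the percentile over all miRNAs, 0.027 with quantile normalization, 0.010 without scaling, 0.062 with the brightest probe and 0.039 without the arrays whose labels conflict. The authors' value of miR-451-5p was 0.1 on Sham 1 and 2, MI 3, and YQFM 3 and 4, and was taken to log2 without a floor. Those arrays weigh heavily in ratios on the authors' values, which are therefore poor estimates of a fold. The cause of the sign changes was not tested.

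The difference miR-486 minus miR-451-5p became 0.14 for MI against Sham with the brightest probe and 1.42 with slide as a block, and kept its sign at -1.41 with the authors' values, -0.69 with the total gene signal and -0.37 with the lower floor. For YQFM against MI it became 0.49 with the total gene signal, 1.24 with the authors' values and 0.22 with the lower floor, against -1.33 with slide as a block and -0.42 with the brightest probe, and for YQFM against Sham it became 0.082 with slide as a block. miR-451-5p minus miR-23a-3p became 0.40 for MI against Sham with the total gene signal, 1.11 with the authors' values, 0.0037 with quantile normalization and 0.078 with the lower floor, and for YQFM against MI 0.27 with the brightest probe and 0.65 with slide as a block. The correlation of miR-486 with miR-451-5p became -0.059 with normexp, -0.25 with the percentile over all miRNAs and -0.25 with quantile normalization.

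Leaving out 1 array at a time, the log2 ratio of miR-451-5p ranged from -0.42 to 0.38 for MI to Sham, from -0.25 to 0.39 for YQFM to MI and from -0.38 to 0.49 for YQFM to Sham. That of miR-486 ranged from -0.33 to -0.19, from -0.11 to 0.0073 and from -0.37 to -0.25. The difference miR-486 minus miR-451-5p ranged from -0.66 to 0.23, from -0.46 to 0.21 and from -0.83 to 0.082. That of miR-451-5p minus miR-23a-3p ranged from -0.51 to 0.36, from -0.28 to 0.23 and from -0.52 to 0.35. The correlation ranged from -0.022 to 0.43.

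The replicate numbers did not pair the arrays: of 12 same-numbered pairs, 4 had deviations correlated above 0.1, from -0.64 to 0.32. With replicate number as a replicate block, the ratios of miR-451-5p stayed at -0.13, 0.11 and -0.02 and those of miR-486 at -0.26, -0.06 and -0.32, none called, while calls among all miRNAs for MI to Sham went from 29 to 8. Over the other alternatives that count ran from 0 to 63, with 1 without MI 2 or MI 3 and 63 without MI 4, and for YQFM to MI from 0 to 33, the latter without MI 4. miR-144-3p was not fitted, since it was detected on no array. Detection limits what these arrays can show of miR-451-5p.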
